A study of Mus musculus with 6 samples.

Results

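The nuclear-encoded subunits of respiratory complexes III and IV and of ATP synthase were taken as every gene whose symbol begins with Uqcr, Cox4, Cox5, Cox6, Cox7, Cox8 or Atp5, and the table holds 41 such genes among 16640. Of these members, 8 are named for complex III, 16 for complex IV and 17 for ATP synthase. The prefix also takes in *Cox7a2l*, which helps complexes III and IV associate, and *Atp5s*, a coupling factor of ATP synthase. It leaves out *Cyc1*, the cytochrome c1 of complex III, which is counted from a list below. Subunits encoded in mitochondrial DNA were not found in the table under the names searched. The libraries come from MIN6, a mouse insulinoma line used as a model of the pancreatic β cell, and compare *Thada*-activated with control cells at 3 libraries each, sequenced on BGISEQ-500. The activated line was transduced by lentivirus with a catalytically dead Cas9, dCas9-VP64, and selected with puromycin. A second lentivirus then brought a guide RNA with the MS2-P65-HSF1 activator, followed by selection with G418. For the control line the paper names dCas9 and guide lentiviruses, and does not state which activators it carries or how it was selected. The guide of the activated line is directed at the *Thada* promoter and that of the control line is non-targeting. Both derive from a tumour line, and neither is described as a clone. The labels number the libraries 1 to 3 within a condition but do not say that they come from separate cultures. The paper says of its cell experiments in general that they were repeated independently and names no libraries there, so the p-values below measure only the spread between these libraries, which may be technical.

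Complex III passes electrons from ubiquinol to cytochrome c, complex IV passes them on to oxygen, and both pump protons that ATP synthase uses to make ATP. In β cells the ATP made from glucose closes potassium channels, which depolarises the cell and triggers insulin release. Most subunits have a single gene, while a few of complex IV have isoforms typical of heart, skeletal muscle, lung or testis, and the c subunit of the ATP synthase ring is made from several genes for the same protein.

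Estimated counts summed to 17272834, 17166511 and 17689611 in control replicates 1, 2 and 3 and to 17727004, 17385036 and 17224631 in the activated ones. The 41 members took 0.647%, 0.62% and 0.695% of the counts in control replicates 1, 2 and 3, and 0.672%, 0.659% and 0.739% in *Thada*-activated replicates 1, 2 and 3. Within each condition the share was highest in replicate 3, and the conditions overlapped. Levels are given below in CPM, the count divided by a TMM-scaled library size and multiplied by 1e+06, and as FPKM, which also divides by transcript length, wherever genes are compared with each other. *Thada* itself had a ratio of activated to control means of 2.19 in CPM and 2.2 in FPKM, and all activated libraries lay above all control libraries (p = 0.1 in an exact permutation test, where 3 against 3 libraries allow no lower value). The β-cell label was checked on 15 marker genes, which together took 11%, 10% and 13% of the counts in control replicates 1, 2 and 3 and 10.5%, 10.3% and 11.8% in activated replicates 1, 2 and 3, with *Ins2* the most abundant. Of these markers *Slc2a2*, the glucose transporter of the β cell, was near 0, at 0.0585, 0.233 and 0.0573 CPM in control and 0.169, 0.172 and 0.512 CPM in activated replicates 1, 2 and 3. Acinar markers summed to at most 0.117 CPM in any library.

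Per transcript length, complex IV held the most abundant members. *Cox8a*, a small subunit of complex IV, had the highest mean of all members at 1091 FPKM, followed by *Cox6a1*, an outer subunit of the same complex, at 892 FPKM. In ATP synthase the highest were *Atp5b*, the catalytic β subunit, at 662 FPKM and *Atp5l*, subunit g of the membrane part, at 485 FPKM. In complex III the highest means were those of *Uqcrh*, the hinge protein that meets cytochrome c, at 276 FPKM, and of the small subunits *Uqcr10* and *Uqcr11*, both at 226 FPKM. The lead of *Uqcrh* came from replicate 3, at 381 and 431 FPKM, since *Uqcr11* was the higher in 3 of the 4 libraries of replicates 1 and 2. *Atp5s* stood at 6.95 FPKM, the lowest mean in ATP synthase. In complex III *Uqcrq*, at 78.8 FPKM, and *Uqcrfs1*, at 81.6 FPKM, had the lowest means, and *Uqcrfs1* was the lower in all 4 libraries of replicates 1 and 2.

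Most isoform families of complex IV were led by a single gene, and the 7a family was not. *Cox4i1*, the widely expressed isoform of subunit 4, stood at 361 FPKM, while *Cox4i2*, the lung isoform, had 1 count in control replicate 3 and 0 in the 5 other libraries. *Cox6b1* stood at 420 FPKM, and *Cox6b2*, the testis isoform, had 3, 1 and 4 counts in control and 1, 2 and 3 counts in activated replicates 1, 2 and 3. *Cox4i2* and *Cox6b2* were too low to be tested, so 39 members entered the comparisons, 8 of complex III, 14 of complex IV and 17 of ATP synthase. The muscle isoform *Cox6a2* stood at 3.44 FPKM, far below *Cox6a1*, with 2.46, 1.28 and 1.43 CPM in control and 2.08, 1.84 and 1.31 CPM in activated replicates 1, 2 and 3. Of the subunit 7a genes, *Cox7a2l* had a mean of 212 FPKM, *Cox7a2* of 151 FPKM and the muscle isoform *Cox7a1* of 11.1 FPKM. In replicates 1 and 2 *Cox7a2*, at 142 to 155 FPKM, lay above *Cox7a2l*, at 126 to 138 FPKM, and only in replicate 3 was *Cox7a2l* the higher. *Cox7b* stood at 91 FPKM and its testis isoform *Cox7b2* at 1.71 FPKM, with 0.459 to 1.11 CPM in control and 0.287 to 0.682 CPM in activated libraries. Among the 3 genes of the c subunit the order was less steep, with *Atp5g2* at 333 FPKM, *Atp5g3* at 256 FPKM and *Atp5g1* at 229 FPKM.

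The comparison of *Thada*-activated with control cells asks which transcripts differ with activation of the gene. With the condition as the only term, edgeR's quasi-likelihood test with Benjamini-Hochberg adjustment passed 0 of the 39 tested members at an adjusted p under 0.05, as it did 0 (0.00%) of the 12516 tested genes. At an unadjusted p under 0.05 there was 1 member, *Atp5k*, or 2.56% of those tested, against 101 of all genes or 0.807%. The DESeq2 Wald test passed 0 members and limma on log2 FPKM passed 0 members. The estimates were small and mostly above 0, for 31 of 39 members (79.5%) against 48.7% of all genes, with 6 of 8 in complex III, 13 of 14 in complex IV and 12 of 17 in ATP synthase. Their median log2 difference was 0.08, against -0.00 over all genes, and was 0.09, 0.07 and 0.08 in complexes III, IV and ATP synthase. The estimates ran from -0.66 for *Cox7b2* to 0.59 for *Atp5k*. The median log2 deviation of the members from their own means was -0.03, -0.14 and 0.01 in control and 0.03, -0.02 and 0.12 in activated replicates 1, 2 and 3. Control replicate 2 lay lowest and activated replicate 3 highest, and the conditions overlapped. Without control replicate 2 the members' median difference was 0.02 with 24 of 39 above 0, and without activated replicate 3 it was 0.04, also with 24 above 0. Without control replicate 2 complex IV had 5 of 14 above 0 and a median of -0.02, and complex III had a median of 0.01. Without activated replicate 3 complex IV had 8 of 14 above 0 and a median of 0.01, and complex III had 4 of 8 and a median of 0.01. Without control replicate 3 the medians were 0.13, 0.16 and 0.03 in complexes III, IV and ATP synthase. Each of these unblocked fits without 1 library holds replicate 3 at unequal weight between conditions. The replicate 3 difference described below therefore enters their estimates.

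All activated libraries lay above all control libraries for 3 members, *Uqcr11*, *Atp5j* and *Atp5k*, against 2.68% of all genes, and below them for 0 members, against 2.72%. Between libraries of the same number, 19 of 39 members (48.7%) were higher in the activated library of all 3 pairs, against 16.3% of all genes, and 3, *Uqcrc2*, *Atp5a1* and *Atp5s*, were lower in all 3, against 16.7%. Whether equal numbers mark paired cultures is not stated. Once replicate number entered as a block, edgeR passed 0 members, against 28 of all genes or 0.224%, and the lowest adjusted p of a member was 0.105. At an unadjusted p under 0.05 there were 13 of 39 members higher in activated cells (33.3%) against 6.06% of all genes, and 0 lower against 4.34%. They were *Uqcr11* and *Uqcrh* in complex III, *Cox5b*, *Cox6c*, *Cox7a1*, *Cox7b* and *Cox7c* in complex IV, and *Atp5e*, *Atp5g2*, *Atp5g3*, *Atp5j2*, *Atp5k* and *Atp5mpl* in ATP synthase. With a trend on transcript length removed as well, 3 members were under this threshold (no share of all genes is given for that fit). The blocked DESeq2 Wald test also passed 0 members. Single pairs moved the edgeR blocked count of members. Without the pair of replicate 1 it was 3 (*Atp5k*, *Uqcr11* and *Cox5b*, of 66 genes in all). Without the pair of replicate 2 it was 0, of 22 genes in all. Without the pair of replicate 3 it was 4 (*Atp5e*, *Atp5k*, *Uqcr10* and *Uqcr11*, of 366 genes in all). All of these were higher in activated cells. In these fits, without the pairs of replicates 1, 2 and 3, the members' median was 0.08, 0.05 and 0.10. The members above 0 were 31, 28 and 32 of 39 in the same order. Without the pair of replicate 2, complex III had 5 of 8 above 0 and a median of 0.02. In that fit complex IV had 9 of 14 above 0 and a median of 0.06.

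In complex III, *Uqcr11* had the lowest blocked p of any member. Its libraries held 60.6, 45.7 and 56.1 CPM in control and 66.5, 62.8 and 92 CPM in activated replicates 1, 2 and 3. The groups did not overlap, and the activated replicate 3 library stood well above the rest. The means were 54.1 ± 7.66 CPM in control and 73.7 ± 15.9 CPM in activated cells (SD, n = 3). Its log2 difference was 0.45 (standard error 0.19) without the block and 0.44 (standard error 0.09) with it, with adjusted p-values of 1 and 0.105 by edgeR. *Uqcrh* followed at a blocked estimate of 0.18 (standard error 0.06, adjusted p = 0.365 by the same test), and its values are given with replicate 3 below.

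In ATP synthase, *Atp5k*, which encodes subunit e of the membrane part, had the largest estimate of any member. Its libraries held 20.3, 16.3 and 12.6 CPM in control and 24.1, 21.8 and 28.5 CPM in activated replicates 1, 2 and 3, so the groups did not overlap. Replicate 3 was the lowest control library and the highest activated library. The means were 16.4 ± 3.85 CPM in control and 24.8 ± 3.37 CPM in activated cells (SD, n = 3). The log2 difference was 0.59 (standard error 0.21) without the block and 0.60 (standard error 0.15) with it, with adjusted p-values of 1 and 0.151 by edgeR. *Atp5mpl*, a small proteolipid of the membrane part, was counted at 46, 40.1 and 51.1 CPM in control and at 47.8, 46.4 and 67.8 CPM in activated replicates 1, 2 and 3. *Atp5e*, subunit ε of the central stalk, was counted at 62.5, 45.4 and 72.8 CPM in control and at 65.2, 63.7 and 78.3 CPM in activated replicates 1, 2 and 3. *Atp5g2* was counted at 148, 139 and 178 CPM in control and at 160, 160 and 198 CPM in activated replicates 1, 2 and 3. For these 3 genes the activated library was the higher of each pair while the groups overlapped, with blocked log2 differences of 0.23, 0.21 and 0.16 and adjusted p-values of 0.329, 0.394 and 0.377 by edgeR. *Atp5j*, a coupling factor of the stalk, was not near the threshold (blocked log2 difference 0.12, adjusted p = 0.535 by edgeR), although its 147 to 158 CPM in control lay below its activated libraries.

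In complex IV the blocked estimates were highest for *Cox7a1*, which has few counts. Its levels were 1.58, 1.69 and 2.58 CPM in control and 2.81, 2.47 and 3.07 CPM in activated replicates 1, 2 and 3, and control replicate 3 lay above activated replicate 2. Its blocked log2 difference was 0.52 (standard error 0.22, adjusted p = 0.427 by edgeR). *Cox6c*, a small membrane subunit, was counted at 119, 93.8 and 97.8 CPM in control and at 124, 110 and 124 CPM in activated replicates 1, 2 and 3. *Cox7b*, another small subunit, was counted at 78.1, 71.8 and 68.5 CPM in control and at 82.2, 77.7 and 83.4 CPM in activated replicates 1, 2 and 3. Both were higher in the activated library of each pair with groups that overlapped, at blocked log2 differences of 0.21 and 0.16 and adjusted p-values of 0.309 and 0.447 by edgeR. *Cox5b*, a matrix-facing subunit, had a blocked log2 difference of 0.29 (standard error 0.09, adjusted p = 0.291 by edgeR), and the pairs of replicates 1, 2 and 3 gave 0.01, 0.42 and 0.49. The other isoforms were close to 0 or had wide errors, with blocked log2 differences of 0.10 for *Cox4i1*, 0.03 for *Cox6a2*, 0.01 for *Cox6b1*, 0.03 for *Cox7a2*, 0.06 for *Cox7a2l* and -0.66 (standard error 0.43) for *Cox7b2*.

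**Figure D1:**
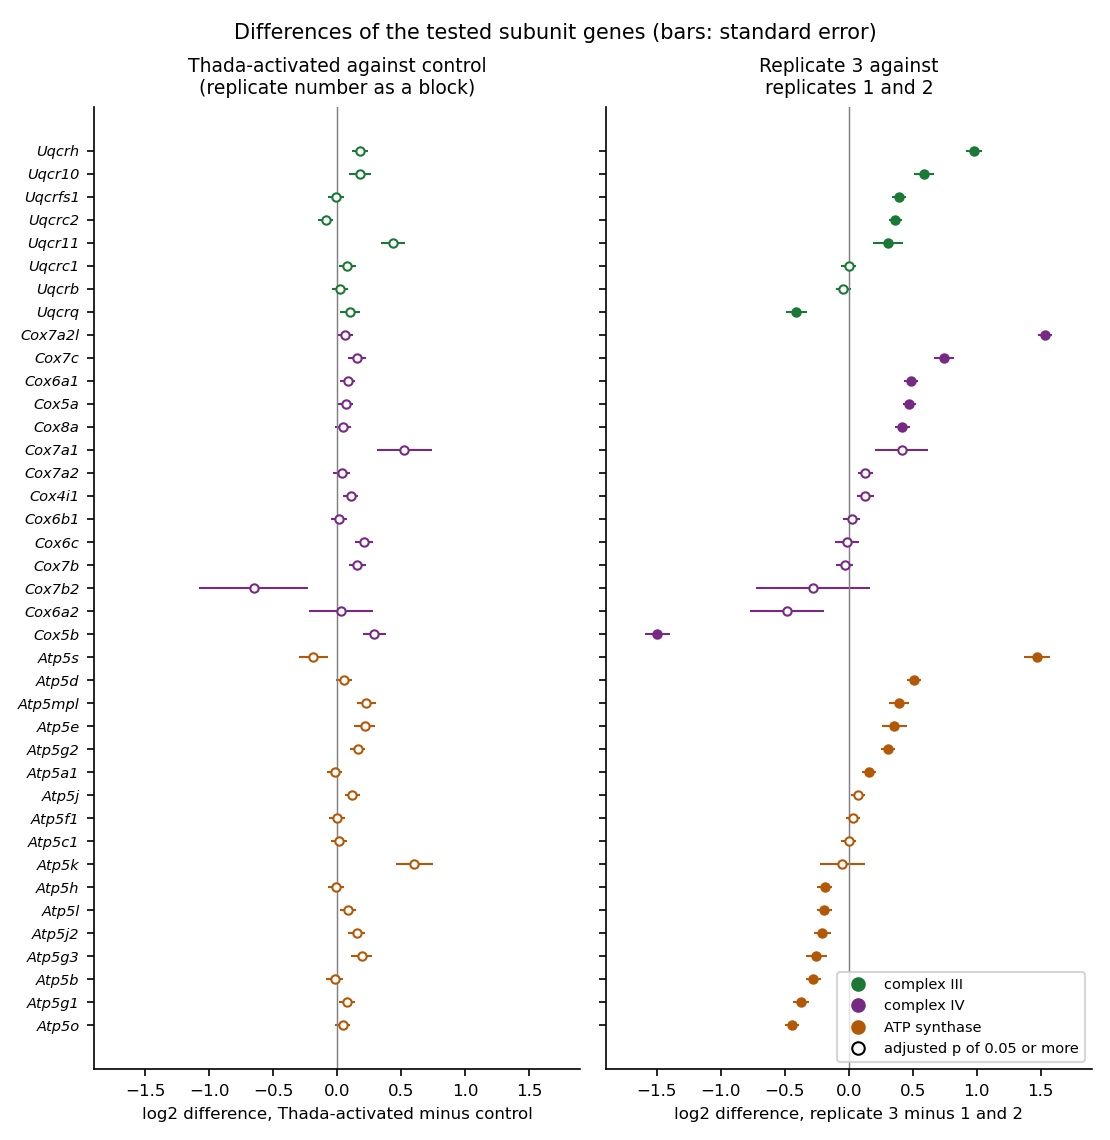
Log2 difference of each of the 39 tested members between *Thada*-activated and control cells with the replicate number as a block (left) and between replicate 3 and replicates 1 and 2 (right), with bars of 1 standard error, colours by complex and open points at an adjusted p of 0.05 or more in edgeR's quasi-likelihood test. On the left every point is open and the points run from -0.66 to 0.60, while on the right 16 filled points lie above 0 and 9 below it, from -1.50 to 1.53.

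Summed over all members, the level of the activated library was 1.02, 1.06 and 1.03 times that of the control library of the same number for replicates 1, 2 and 3. For complex III these ratios were 1.02, 1.12 and 1.05, for complex IV 1.03, 1.11 and 1.04, and for ATP synthase 1.02, 1.03 and 1.01. In bulk RNA a change in cell composition and a change of RNA per cell cannot be told apart. The members have short transcripts, with a median effective length of 502 bases against 2719 over all tested genes with a length, from 140 bases for *Atp5k* to 2274 for *Atp5a1*. By length, 34 of the 39 fell in the shortest of 5 equal length classes and 5 in the next class. In the shortest class the median log2 difference of activated against control cells was 0.03 with 61.2% of genes above 0, and in the longest class it was -0.02 with 39.9% above 0. After a trend on transcript length was removed, the members' median was 0.002 without the block and 0.001 with it, and 20 of 39 were above 0 in either fit. In these fits edgeR passed 0 members, with 0 at an unadjusted p under 0.05 without the block and 3 with it. No share of all genes at that threshold is given for these fits, so these counts cannot be set against a background.

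**Figure D2:**
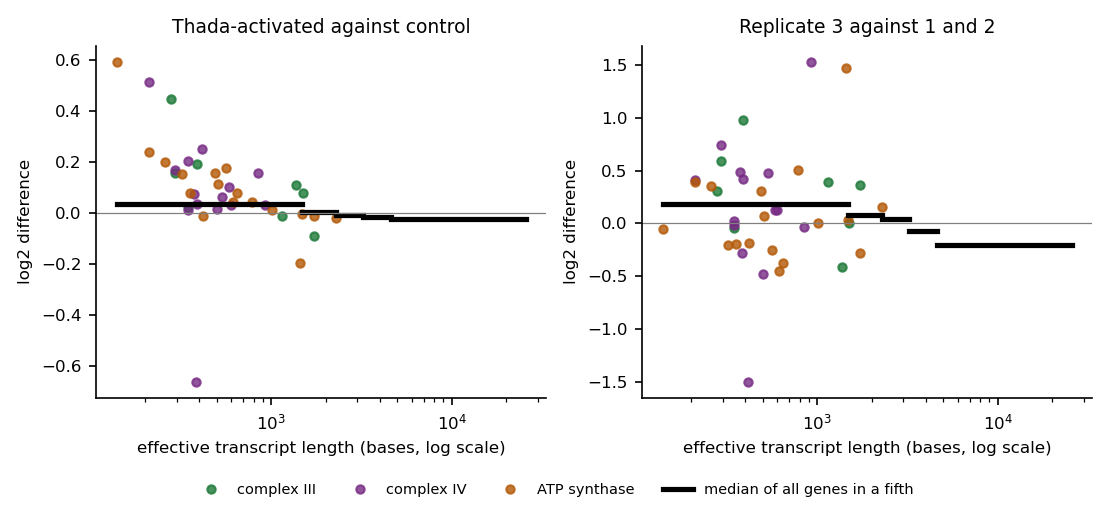
Log2 difference of each tested member against its effective transcript length on a log axis, for *Thada*-activated against control cells without a block (left) and replicate 3 against replicates 1 and 2 (right), with black lines at the median of all tested genes in each of 5 length classes. The black lines descend from 0.03 in the shortest class to -0.02 in the longest on the left, and from 0.18 to -0.21 on the right.

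Replicate 3 was compared with replicates 1 and 2 because the replicate 3 libraries of both conditions were known to stand apart, so the p-values of this comparison describe these libraries. With the condition as a further term, edgeR's quasi-likelihood test passed 25 of 39 members (64.1%) at an adjusted p under 0.05, against 68.6% of all tested genes, a share close to the background. It passed 16 members as higher in replicate 3 (41%) against 34.3% of all genes, and 9 as lower (23.1%) against 34.4%. With a fold change over 1.5 as well, 5 members were higher (12.8%) against 15.7% of all genes, and 1 was lower (2.56%) against 15.4%. Both replicate 3 libraries lay above the 4 others for 16 members, against 35.9% of all genes, and below them for 7, also against 35.9%. The members' log2 differences ran from -1.50 to 1.53, with a standard deviation of 0.53 against 0.70 over all genes. By complex, 5 members of complex III were higher and 1 lower, 5 of complex IV were higher and 1 lower, and 6 of ATP synthase were higher and 7 lower. The median log2 differences were 0.33, 0.13 and -0.00 in this order, and 0.11, -0.12 and -0.20 with a trend on transcript length removed. The summed level in replicate 3 was 1.21 times that of replicates 1 and 2 for complex III, 1.33 times for complex IV and 0.973 times for ATP synthase.

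In complex III the largest difference was that of *Uqcrh*, counted at 83.7, 72.5 and 148 CPM in control and at 87.4, 84.2 and 176 CPM in activated replicates 1, 2 and 3. Both replicate 3 libraries lay far above the 4 others. The log2 difference was 0.98 (standard error 0.06), a fold change of 1.97, with an adjusted p of 9.34e-09 by edgeR. *Uqcr10* was counted at 58.5, 47.7 and 86 CPM in control and at 61, 65.4 and 88.2 CPM in activated replicates 1, 2 and 3, and replicate 3 again lay above the others in both conditions. Its log2 difference was 0.59 (standard error 0.08, adjusted p = 1.68e-05 by edgeR), and it ran from 0.26 to 0.70 over 14 alternatives. *Uqcrq*, a ubiquinone-binding small subunit, passed as lower, at 122, 98.7 and 90.5 CPM in control and 123, 126 and 85.8 CPM in activated replicates 1, 2 and 3. Its replicate 3 libraries were the lowest of each condition, and the log2 difference was -0.41 (standard error 0.08, adjusted p = 0.000778 by edgeR). The core proteins differed from each other, since *Uqcrc2* rose by 0.36 and *Uqcrc1* had an estimate of -0.00, and *Uqcrfs1*, the Rieske iron-sulfur protein, rose by 0.39. *Uqcr11* passed at 0.31 (adjusted p = 0.043 by edgeR) and did so in 6 of 14 alternatives, and *Uqcrb*, at 62.5 to 66.1 CPM in all libraries, had an estimate of -0.04 and passed as lower at -0.36 with the length trend removed. For *Uqcr11* the difference was 0.08 in control and 0.51 in activated cells (interaction 0.43, adjusted p = 0.406 by edgeR, passing in 2 of 11 alternatives), and it was -0.02 with the length trend removed.

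In complex IV the widest differences of any member went opposite ways. *Cox7a2l* was counted at 118, 115 and 350 CPM in control and at 127, 122 and 346 CPM in activated replicates 1, 2 and 3. Its replicate 3 libraries lay far above the rest, with means of 348 ± 2.59 CPM (SD, n = 2) in replicate 3 and 121 ± 5.35 CPM (SD, n = 4) in the others. The log2 difference was 1.53 (standard error 0.05), a fold change of 2.89, with an adjusted p of 4.47e-11 by edgeR. *Cox5b* was counted at 78.1, 64.2 and 22.7 CPM in control and at 78.5, 85.8 and 31.9 CPM in activated replicates 1, 2 and 3. Its replicate 3 libraries lay far below the rest, with means of 27.3 ± 6.49 CPM (SD, n = 2) in replicate 3 and 76.6 ± 9 CPM (SD, n = 4) in the others. The log2 difference was -1.50 (standard error 0.10, adjusted p = 1.73e-08 by edgeR), so the level in replicate 3 was 2.82 times lower. The partner subunit *Cox5a* rose by 0.47 (adjusted p = 2.32e-06 by edgeR), and by 0.21 to 0.51 over 14 alternatives.

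The most abundant members of complex IV were higher in replicate 3 before a length correction. *Cox8a* was counted at 386, 355 and 520 CPM in control and at 395, 395 and 501 CPM in activated replicates 1, 2 and 3. *Cox6a1* was counted at 293, 280 and 414 CPM in control and at 312, 307 and 419 CPM in activated replicates 1, 2 and 3. For both genes each replicate 3 library lay above the 4 others, with log2 differences of 0.42 and 0.49 and adjusted p-values of 1.43e-05 and 1.5e-06 by edgeR. With the length trend removed *Cox8a* had a log2 difference of 0.12 and did not pass (adjusted p = 0.0618 by edgeR), and *Cox6a1* passed at 0.18. *Cox7c*, a small subunit chosen after its values were seen, rose by 0.74, a fold change of 1.67. Over 14 alternatives its log2 difference ran from 0.41 to 0.82. Without a length correction the other isoforms did not pass, with log2 differences of 0.13 for *Cox4i1*, -0.48 for *Cox6a2*, 0.02 for *Cox6b1*, 0.41 for *Cox7a1*, 0.13 for *Cox7a2*, -0.03 for *Cox7b* and -0.28 for *Cox7b2*. With the length trend removed *Cox6a2*, *Cox6b1* and *Cox7b* passed as lower, at -0.75, -0.29 and -0.24. *Cox4i1* and *Cox7a2* passed as higher in 2 of 14 alternatives, with library sizes taken without the most abundant genes and without activated replicate 3, *Cox6a2* also as lower without control replicate 2, and *Cox7a1* as higher in both limma fits. *Cox4i1* was counted at 212, 182 and 220 CPM in control and at 222, 206 and 229 CPM in activated replicates 1, 2 and 3, and *Cox6b1* at 157, 135 and 147 CPM in control and at 150, 143 and 149 CPM in the activated ones. *Cox7a2* was counted at 86.9, 83.2 and 98.9 CPM in control and at 92.1, 89.2 and 93.1 CPM in activated replicates 1, 2 and 3. Replicate 3 was the highest library of each condition for *Cox4i1* and *Cox7a2*, while for *Cox6b1* it lay within the range of the others.

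In ATP synthase the catalytic head and its stalks were split. *Atp5b* was counted at 1189, 1197 and 1054 CPM in control and at 1217, 1245 and 946 CPM in activated replicates 1, 2 and 3. Both replicate 3 libraries were the lowest, and the log2 difference was -0.28 (standard error 0.06, adjusted p = 0.000695 by edgeR). *Atp5a1*, the α subunit of the same head, passed at 0.16 (adjusted p = 0.0156 by edgeR) but not without activated replicate 1 or without activated replicate 2, while *Atp5c1*, the γ subunit of the central stalk, had an estimate of -0.00, and passed as lower at -0.17 with the length trend removed. *Atp5d*, the δ subunit of the central stalk, rose by 0.51, and by 0.29 to 0.59 over 14 alternatives. *Atp5e* passed at 0.36 but not without either replicate 3 library, at 0.28 and 0.43, nor with the length trend removed, at 0.02. The length fit also took *Atp5a1* to 0.10 and *Atp5mpl*, which had passed at 0.39, to 0.03, and neither passed there. *Atp5o*, which ties the head to the outer stalk, was counted at 155, 152 and 112 CPM in control and at 159, 157 and 116 CPM in activated replicates 1, 2 and 3. Replicate 3 lay below the 4 other libraries in both conditions, and the log2 difference of -0.45 (standard error 0.05, adjusted p = 4.71e-06 by edgeR) was the lowest in ATP synthase. *Atp5f1* and *Atp5j*, of the same stalk, had estimates of 0.03 and 0.07 (*Atp5j* passed as lower at -0.20 with the length trend removed), and *Atp5h* passed at -0.19 but not without control replicate 3, at -0.13.

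In the membrane part, *Atp5l* was counted at 176, 182 and 148 CPM in control and at 187, 177 and 169 CPM in activated replicates 1, 2 and 3. Replicate 3 was lowest in both conditions, with a log2 difference of -0.19 (standard error 0.06, adjusted p = 0.0104 by edgeR). Without control replicate 3 this was -0.11 and did not pass. The genes of the c subunit encode the same mature protein. *Atp5g1* was counted at 166, 144 and 123 CPM in control and at 166, 166 and 125 CPM in activated replicates 1, 2 and 3, and fell by 0.37 on the log2 scale. *Atp5g2* passed at 0.31 but had 0.03 and did not pass with the length trend removed. *Atp5g3* passed at -0.26, with a difference between the conditions that is given below, and did not pass without control replicate 3, at -0.05. The summed level of ATP synthase subunits was nearly level across replicate numbers, at 4009, 3905 and 3875 CPM in control and 4100, 4035 and 3931 CPM in activated replicates 1, 2 and 3. *Atp5s*, the coupling factor, was counted at 6.79, 6.57 and 18.9 CPM in control and at 5.85, 6.09 and 16.3 CPM in activated replicates 1, 2 and 3. Its replicate 3 libraries lay far above the rest, with a log2 difference of 1.47 (standard error 0.10), or 2.78 times as much (adjusted p = 1.68e-08 by edgeR). At these levels it added little to the sum for ATP synthase.

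**Figure D3:**
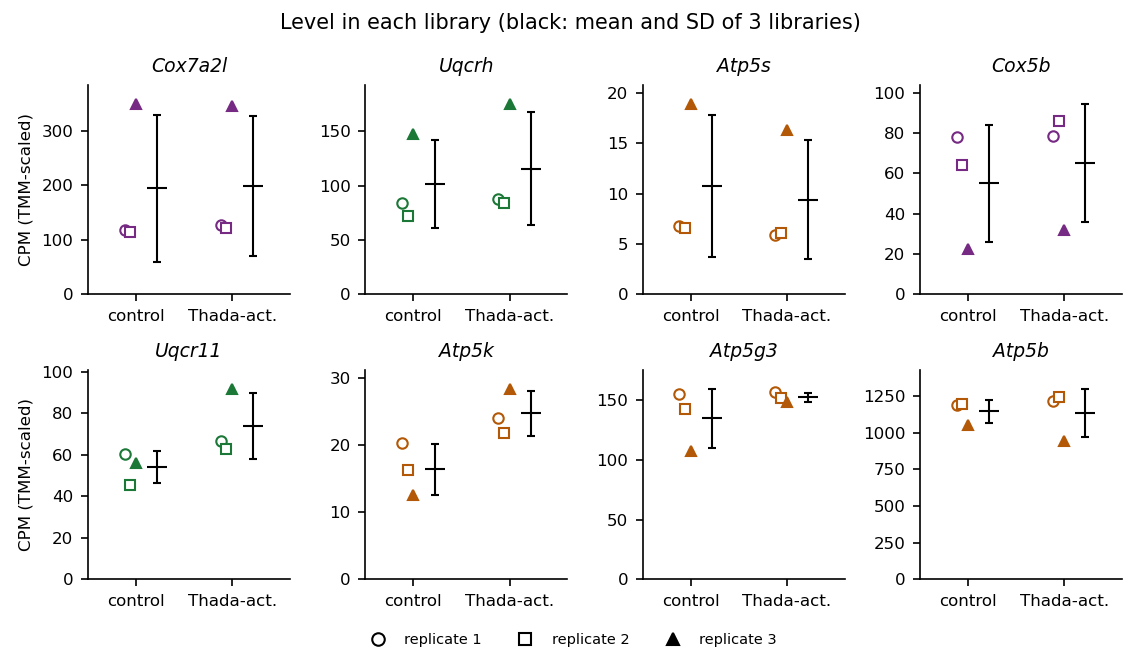
Level in CPM of 8 members in each library of control and *Thada*-activated cells, with open symbols for replicates 1 and 2, filled symbols for replicate 3, colours by complex, and black marks for the mean and SD of 3 libraries. *Cox7a2l* reaches 350 and 346 CPM in replicate 3 against 115 to 127 CPM in the other libraries, *Cox5b* drops to 22.7 and 31.9 CPM there, and *Uqcr11* and *Atp5k* are the members in the plot whose conditions do not overlap.

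Within control cells alone, replicate 3 differed from replicates 1 and 2 at an adjusted p under 0.05 in 25 members, against 66.3% of all genes, and within activated cells in 22, against 64.1%, from the cell means of an edgeR fit with the interaction. Replicate 3 is a single library in each condition, so all spread in this fit comes from replicates 1 and 2, and these counts describe 1 library against 2. Replicates 1 and 2 differed from each other in 0 members and in 0.00% of all genes by edgeR's quasi-likelihood test (3 members at an unadjusted p under 0.05, *Atp5e*, *Cox4i1* and *Cox6c*, all lower in replicate 2, against 0.727% of all genes lower). Their estimates, replicate 2 minus replicate 1, were above 0 for 4 members, *Uqcrc2*, *Atp5b*, *Atp5f1* and *Atp5s*, against 50.8% of all genes, with a members' median of -0.07. The replicate 3 difference also moved with transcript length, with a median over all genes of 0.18 in the shortest class and -0.21 in the longest. After a trend on length was removed, 10 members were higher in replicate 3 and 17 lower, in place of 16 and 9, against 34.6% of all genes higher and 33.4% lower in the same fit, and the members' median went from 0.07 to -0.12. The 8 members lower in this fit but not in the one without the length correction were *Uqcrb*, *Cox6a2*, *Cox6b1*, *Cox6c*, *Cox7b*, *Atp5c1*, *Atp5j* and *Atp5k*. By complex these counts were 4 higher and 2 lower in complex III, 4 and 5 in complex IV and 2 and 10 in ATP synthase. The direction and the call of *Cox7a2l*, *Uqcrh*, *Atp5s* and *Cox5b* were the same in all 14 alternatives, this one included, with log2 differences from 1.34 to 1.59, 0.68 to 1.03, 1.27 to 1.51 and -1.79 to -1.36.

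A further term asked whether the difference between conditions is the same in replicate 3 as in replicates 1 and 2. Each replicate 3 arm of this term is a single library, so its p-values carry no spread within replicate 3. edgeR's quasi-likelihood test passed 2 of 39 members for this interaction (5.13%), *Atp5g3* and *Atp5k*, against 6.96% of all genes, a share near the background. *Atp5g3* was counted at 155, 143 and 107 CPM in control and at 157, 152 and 149 CPM in activated replicates 1, 2 and 3. Only the control library of replicate 3 lay apart, and the replicate 3 difference was -0.47 in control and -0.05 in activated cells. The interaction was 0.42 on the log2 scale (standard error 0.09, adjusted p = 0.00218 by edgeR). For *Atp5k*, whose levels are given above, the replicate 3 difference was -0.54 in control and 0.31 in activated cells, and the interaction was 0.85 (standard error 0.17, adjusted p = 0.000741 by edgeR). The count depended on the tool and on single libraries, with 0 members by DESeq2 and 0 by limma on log2(FPKM + 1). Without control replicate 1, 2 members passed as higher and 6 as lower, among 1757 of 12731 genes. Without control replicate 2 these were 7 and 1, among 1455 of 12736 genes, and without activated replicate 2 only *Atp5k* passed, among 316 of 12721.

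The rest of the pathway was counted from fixed lists, on which edgeR's quasi-likelihood test passed 0 genes between conditions with or without the block. For replicate 3, 34.3% of all genes were higher and 34.4% lower, and 71.1% were at an unadjusted p under 0.05. There edgeR passed *Cyc1*, the cytochrome c1 of complex III, at 0.18 and *Cycs*, the somatic cytochrome c, at -0.49. Of 6 assembly factors of complex III, 4 were higher and 0 lower (5 at an unadjusted p under 0.05, all 6 estimates above 0), with *Lyrm7* at 0.69 and *Uqcc1* at 0.56, beside the 5 of 8 subunits that were higher. Of 25 tested genes listed with the assembly factors of complex IV, *Ndufa4* included, 9 were higher and 8 lower. Among them were *Cmc1* at 1.04, *Surf1* at 0.75, *Sco2* at -1.11 and *Lrpprc* at -1.10. Of 6 tested genes listed with the assembly factors and inhibitor of ATP synthase, *Usmg5* included, 1 was higher and 1 lower. *Atpif1*, the inhibitor of the enzyme running in reverse, was higher at 0.41 and *Atpaf1* lower at -0.27. Complex II, which feeds electrons to complex III, had 7 of 8 genes higher and 0 lower (8 at an unadjusted p under 0.05), with a median of 0.50. Among 13 nuclear regulators of respiratory genes 4 were higher and 5 lower, with *Ppargc1a* at 1.13 and *Gabpb2* at -1.31, and among 15 genes that mark mitochondrial mass 6 were higher and 5 lower. All these list counts are from the fit without a length correction. No counts of the lists are given with the length trend removed, although the replicate 3 difference moved with length.

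Cell-type markers moved with replicate 3 as well. Of 14 tested β-cell markers 2 were higher, *Ins1* at 0.82 and *Ins2* at 0.57, and 11 lower, with a median of -0.59 and *Abcc8*, the sulfonylurea receptor, at -2.14. In the blocked condition test 1 of them passed, *Ucn3* at 0.52 (adjusted p = 0.0337 by edgeR). Markers of other islet cells summed to 202, 169 and 116 CPM in control and 187, 177 and 120 CPM in activated replicates 1, 2 and 3, with *Sst* the most abundant and 2 of the 4 tested genes higher and 2 lower. Duct markers summed to 15 to 19.8 CPM, led by *Spp1*, with 0 of 4 tested genes higher and 2 lower by edgeR (2 at an unadjusted p under 0.05), and *Sox9* was at or under 1 count. Fibroblast, endothelial and leukocyte markers summed to 3.72 to 7.39 CPM, led by *Col1a1*, with 1 of 3 tested genes higher and 1 lower. Acinar markers had 0 genes to test. The part of these markers and of transcript length in the members' replicate 3 differences was not tested beyond the length fit.

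The members lie on 18 chromosomes of GRCm38, so they share no position. *Cox7a2l* lies at chr17:83501918-83517330, *Uqcrh* at chr4:116066965-116075071, *Uqcr11* at chr10:80402997-80406830 and *Atp5k* at chr5:108433244-108434448, all on the minus strand, while *Cox5b* at chr1:36691449-36693681 and *Atp5s* at chr12:69724950-69744660 are on the plus strand (GENCODE M21). The deposited table gives *Uqcrh*, *Atp5o* and *Uqcrfs1* on the other strand than GENCODE does. These 6 share no exon bases with another gene of the table. For 8 members an opposite-strand gene of the table shares exon bases, namely *Atp5a1*, *Atp5d*, *Atp5f1*, *Atp5j*, *Uqcrb*, *Uqcrc2*, *Cox4i1* and *Cox6c*, and since it is not stated whether reads were counted by strand, their values are uncertain to that extent. Estimated counts were whole numbers for all members but *Uqcrc2*, which was not whole in 5 libraries, and reads shared with processed pseudogenes outside the table could not be told apart.

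Promoter windows of 300 bases, 250 before and 50 after a RefSeq start (GRCm38.p6), were found for 32 of the 41 members, 35 windows in all. Motifs of regulators known for respiratory genes were searched on both strands. The background is every RefSeq window, of tested and untested genes alike, and was not matched for expression or base content. The NRF1 motif GCGCNTGCGC was in 8 windows (22.9%) against 4.6% of 32851 windows of all genes, those of *Uqcrc1*, *Cox6a1*, *Atp5c1*, *Atp5g2*, *Atp5g3*, *Atp5h*, *Atp5k* and *Atp5o*. The GABP/ETS motif CCGGAAGT was in 4 windows (11.4%) against 3.89%, those of *Uqcr11*, *Uqcrh*, *Cox8a* and *Atp5h*. The YY1 motif AAGATGGC was in 3 windows (8.57%) against 2.75%, those of *Atp5f1*, *Atp5j* and *Atp5j2*. Both NRF1 and GABP/ETS matches were in the window of *Atp5h*, and a match is a description of letters only. The windows of 4 members are shown because these stood at the ends of the comparisons, *Cox7a2l* and *Cox5b* with the widest replicate 3 differences, *Uqcrh* with the largest in complex III and *Uqcr11* with the lowest blocked p. Each is kept to its stretch free of annotated exons and is written 5′ to 3′ along the gene, with a GABP/ETS match in capitals, from chr17:83514334-83514583 (minus strand), chr4:116075072-116075268 (minus strand), chr1:36691237-36691448 (plus strand) and chr10:80406831-80407071 (minus strand). The RefSeq start of *Cox7a2l* lies inside the gene as GENCODE places it, so its stretch is not before the GENCODE start. In *Cox7a2l* and *Cox5b* none of the 3 motifs is in the stretch shown.
Cox7a2l: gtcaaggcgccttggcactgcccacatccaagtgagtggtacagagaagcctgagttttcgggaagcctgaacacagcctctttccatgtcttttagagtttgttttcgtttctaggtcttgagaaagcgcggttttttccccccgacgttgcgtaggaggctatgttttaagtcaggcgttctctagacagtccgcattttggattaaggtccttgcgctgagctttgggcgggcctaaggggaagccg
Uqcrh: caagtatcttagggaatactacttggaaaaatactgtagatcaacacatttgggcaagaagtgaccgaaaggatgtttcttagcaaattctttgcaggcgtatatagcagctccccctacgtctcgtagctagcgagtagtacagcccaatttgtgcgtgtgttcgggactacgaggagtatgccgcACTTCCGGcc
Cox5b: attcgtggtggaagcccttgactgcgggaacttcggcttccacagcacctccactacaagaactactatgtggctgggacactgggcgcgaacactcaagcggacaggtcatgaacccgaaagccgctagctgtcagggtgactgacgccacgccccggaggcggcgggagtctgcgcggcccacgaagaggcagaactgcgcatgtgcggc
Uqcr11: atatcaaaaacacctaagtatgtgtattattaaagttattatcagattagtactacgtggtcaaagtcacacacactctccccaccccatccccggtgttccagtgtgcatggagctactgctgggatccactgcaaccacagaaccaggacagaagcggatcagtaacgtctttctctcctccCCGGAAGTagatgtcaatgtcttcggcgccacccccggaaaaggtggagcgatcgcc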

How the data were processed

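RNA of MIN6 cells was sequenced in 3 control and 3 *Thada*-activated libraries. The authors deposited an estimated count per gene and library, not normalized, on RefSeq models of GRCm38, and per the labels used Bowtie2, RSEM and DESeq2, with no versions given. The deposited FPKM values served for levels between genes and for limma. The authors' DESeq2 columns (log2 fold change, p-value and q-value) exist in the same table and were not used here. One broken line of the table was dropped. Library totals ran from 17166511 to 17727004, and 1 count was 0.0563 to 0.0585 CPM.

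Counts were rounded and all genes fitted in R 4.3.3 with edgeR 4.0.16 (filterByExpr, TMM, robust quasi-likelihood test), with p-values adjusted by Benjamini-Hochberg over the 12516 genes tested. The script was tested on simulated counts. A gene passed at an adjusted p under 0.05, and a fold change over 1.5 is given where used. Standard errors given with edgeR estimates were derived from the test. They are the absolute log2 difference divided by the square root of its F value. Fits had the condition alone, the replicate number as a block, replicate 3 with the condition, and their interaction. After each gene's mean per condition was removed, libraries of equal number correlated across genes at 0.667, 0.671 and 0.869, replicates 1 and 2 crossed at 0.705 and 0.726, and replicate 3 with either of them at -0.784 to -0.766. These values set replicate 3 apart and do not test the pairing of replicates 1 and 2. Alternatives used DESeq2 1.42.0, limma 3.58.1, other filters, a length correction and each library or pair left out. Effective length was read from the ratio of count to FPKM, for 92% of tested genes.

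Members given in full were those of highest FPKM in each complex, those at the ends of the replicate 3 difference, the 10 of lowest blocked p and the isoform families, and others were chosen after their values were seen. Members, lists (other subunits and assembly factors of each complex, complex II, nuclear regulators, mitochondrial mass and cell types) and fits were chosen with earlier results of these data known. Positions are from GENCODE M21 and promoters from RefSeq GRCm38.p6.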

Additional observations from a re-analysis of the deposited data

Results flagged for a closer look

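The difference between conditions was not the same in replicate 3 as in replicates 1 and 2 for 2 members, by the interaction term of edgeR's quasi-likelihood test. That is 5.13% of those tested, against 6.96% of all genes, a share near the background. Each replicate 3 arm of this term is a single library, and its spread comes from replicates 1 and 2 alone. For *Atp5k* it was larger in replicate 3 by 0.85 on the log2 scale (adjusted p = 0.000741 by edgeR), with log2 differences of activated over control of 0.25, 0.42 and 1.17 in replicates 1, 2 and 3. Over 11 alternatives its interaction ran from 0.64 to 1.00, and the adjusted p rose to 0.0609 by limma on log2(FPKM + 1). It did not pass by the DESeq2 Wald test or in either limma fit. *Atp5k* has the shortest effective length of the members, and that length, read from count and FPKM, was in one library 0.782 times that in another. Its part in the result was not tested. For *Atp5g3* the interaction was 0.42 (adjusted p = 0.00218 by edgeR), and over 11 alternatives it ran from 0.36 to 0.48, with adjusted p-values of 0.0721 by the DESeq2 Wald test and up to 0.0847 by limma on log2(FPKM + 1). Without activated replicate 2 its adjusted p was 0.0636 by edgeR.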

How the results depend on the processing

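Between conditions, 0 members passed in any of the alternatives except 3 distinct fits, in which all that passed were higher in activated cells. With the replicate block, 0 members passed and 28 of all genes, against 34 by the blocked DESeq2 Wald test and 46 with the block and a length correction. In the blocked fit, leaving out the pair of replicate 1 gave 3 members (2 past a fold of 1.5) and 66 genes, that of replicate 2 gave 22 genes, and that of replicate 3 gave 4 members and 366 genes, which is the fit of replicates 1 and 2 alone with the block. Replicates 1 and 2 alone without a block gave 1 member and 426 genes, replicate 3 as a batch term 93 genes, and the DESeq2 Wald test 7 genes. The members' median of 0.08 became 0.00245 with a length correction and 0.00132 with the block as well. Among single members, *Cox5b* ran from -0.12 without control replicate 3 to 0.59 without control replicate 1, and *Uqcrh* from -0.24 without activated replicate 3 to 0.57 without control replicate 3, and over the alternatives *Cox7a2l* from -0.64 to 0.77 and *Atp5s* from -0.85 to 0.49. Unblocked fits without 1 library hold replicate 3 at unequal weight between conditions, so the replicate 3 difference enters them. For *Cox5b*, *Uqcrh*, *Cox7a2l* and *Atp5s* that difference was -1.50, 0.98, 1.53 and 1.47. *Atp5k* ran from 0.31 to 0.79, *Uqcr11* from 0.26 to 0.59, *Atp5mpl* from 0.03 to 0.34, *Atp5e* from 0.03 to 0.36 and *Atp5g2* from 0.05 to 0.27. For replicate 3 against the others, a length correction gave 10 members higher and 17 lower and a median of -0.12, and turned *Uqcr11* to -0.0246, while the other 13 alternatives gave 14 to 18 higher and 6 to 10 lower. For the interaction, the DESeq2 Wald test and limma on log2(FPKM + 1) and log2(FPKM + 0.1) each gave 0 members, 0 past a fold of 1.5, and 113, 52 and 149 genes. With no filter on low counts *Uqcr11* passed beside *Atp5g3* and *Atp5k*, and no share of all genes is given for that fit. Leaving out 1 library of replicates 1 or 2, chosen after seeing the data, gave 1 to 7 members higher, 0 to 6 lower, 1 to 2 past that fold and 316 to 1757 genes, and leaving out a replicate 3 library removes the term. The cause of these changes was not tested. Only 2 libraries carry replicate 3, and *Cox7a1* and *Cox7b2*, at a few CPM or less, had blocked standard errors of 0.22 and 0.43.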
